A study of Mus musculus with 3 samples.

Results

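The clusters described here are the RBFOX2 crosslink clusters that lay in 5′ untranslated regions (5′ UTRs) of mouse hepatocyte transcripts. A cluster is a short stretch in which the starts of many cDNAs, each taken to mark an RNA base crosslinked to protein, lie close together. A cluster was taken as a 5′ UTR cluster when its midpoint lay, on its own strand, in a 5′ UTR exon of a protein-coding transcript and in no coding sequence or 3′ UTR of any transcript (GENCODE M21, mouse genome GRCm38). Of 87021 clusters, 1067 met this rule, or 1.23% (95% Wilson interval 1.16 to 1.30%), and they lay in 879 protein-coding genes. The assay, eiCLIP, joined UV crosslinking of living cells to immunoprecipitation of RBFOX2 and sequencing of the bound RNA. The cells were primary hepatocytes, the parenchymal cells of liver, from C57BL6/J mice on control diet, plated, kept in culture overnight and crosslinked with UV at 150 mJ/cm2. No genotype, treatment or age is named for these samples, though the study's methods give the age at which mice began its diets. RNA was recovered in 3 libraries with an antibody to Rbfox2 (RBM9). These libraries form a single group, and the authors pooled them before clusters were called, so no value below has a spread between libraries and no test between groups was possible. Intervals cover counting error over clusters only, and clusters of the same gene are not independent.

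RBFOX2 is a splicing factor with a single RNA recognition motif that binds the sequence UGCAUG and its core GCAUG, written TGCATG and GCATG below in DNA letters. It is best known for binding introns beside alternative exons, where its position decides whether the exon is included or skipped. The 5′ UTR is the stretch between the start of an mRNA and its start codon. It is scanned by the small ribosomal subunit, and its structure and upstream open reading frames set how often the coding sequence is translated. Many genes have several promoters and thus several first exons, so that the 5′ UTR of a transcript can be intronic sequence in the longer transcripts of the same gene.

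The sites that carry the RBFOX hexamer TGCATG are shown first, because only 35 of the 1065 clusters with transcript sequence had it within 50 nt of the cluster along the spliced transcript. That is 3.29% (2.37 to 4.54%), an interval that holds the mean of 2.57% for windows of those lengths along the same UTRs. Of the 35, 17 were intronic in the principal transcript, the main annotated form of the gene, among them those of Krba1, Gtf2ird1 and Slc4a2. The sites below belong to the clusters with the highest counts among these 35, and the last is the pentamer of Snrnp70, a gene the study names as an RBFOX2 target. Each is written 5′ to 3′ in the sense of the mRNA, from GENCODE M21 transcripts on GRCm38, with the motif in capitals.
Krba1, chr6:48401448-48401477, plus strand: gtttgtgttattTGCATGgttaatttctgc
Rbm10, chrX:20617940-20617969, plus strand: ggacttggtagtTGCATGcattggctccca
Gtf2ird1, chr5:134455914-134455943, minus strand: aagaggctggctTGCATGgtgggagccgga
Als2cl, chr9:110882755-110882784, plus strand: gttctgaagctcTGCATGatcttcagggtt
Tmbim1, chr1:74296478-74296507, minus strand: tgtcacagggtgTGCATGggaaggggtggt
Zdhhc5, chr2:84710720-84710749, minus strand: cctgcaactgttTGCATGcatacagcctac
Slc4a2, chr5:24428514-24428543, plus strand: cacttctaccccTGCATGtctccccaagac
Snrnp70, chr7:45395713-45395742, minus strand: ggcGCATGcgcattgcgaaaggcggaggga
In Rbm10, which encodes an RNA-binding splicing regulator, the hexamer began 2 nt upstream of the 5′ end of a cluster of 39 counts. In Als2cl it began 13 nt upstream (32 counts) and in Zdhhc5 29 nt upstream (24 counts). The Krba1 hexamer lay between its clusters, 43 nt upstream of the one with 54 counts and 35 nt downstream of the 5′ end of the one with 30 counts. In Gtf2ird1, Tmbim1 and Slc4a2 it lay 29, 32 and 54 nt downstream of the 5′ end of clusters with 38, 27 and 23 counts. The hexamer therefore lay inside the cluster in Gtf2ird1, Tmbim1 and Slc4a2, across its 5′ end in Rbm10, and outside it in Als2cl, Zdhhc5 and Krba1. The Snrnp70 pentamer lay 31 nt upstream of the 5′ end of a cluster of 38 counts. The other sites among the 10 highest were in Ivns1abp (27 counts), where the site spanned a splice junction, and in Igip (26 counts).

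The highest clusters are shown next by their crosslinks rather than by a motif, because most of them, like most 5′ UTR clusters, had none. The capital is the base at the 5′ end of the cluster, where the most upstream cDNA of the cluster began.
Cald1, chr6:34709521-34709550, plus strand: gcgcatcctgCtcagcgcatttcggccaca
Gdf15, chr8:70631935-70631964, minus strand: ttctaggtttTccttggcttcacctttgat
Mt2, chr8:94172773-94172802, plus strand: tgcttctctcCatcacgctcctagaactct
Trf, chr9:103230242-103230271, minus strand: cgcagaagcgGgtcggtctgtactccccgc
Gc, chr5:89457759-89457788, minus strand: cctgtgctccTgccttttgcgtggtggccg
Rab24, chr13:55321639-55321668, minus strand: gcggcccagggaGCATGagcgggcagcgcg
The Rab24 line instead shows its GCATG in capitals. Of the 15 highest clusters, 2 had a match in the spliced window, against 10.9% of all 5′ UTR clusters with sequence. The Rab24 match began 2 nt before the start codon, so its ATG is the start codon itself.

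Over the whole list the clusters summed to 2850863 counts, a sum over clusters that is not a sequencing depth, and no cluster had fewer than 10 counts. Of 8 hepatocyte markers 7 had clusters (0 to 8110 counts per gene, 11836 in all, with Alb highest), and 2 of them, Apoa1 and Trf, had one in the 5′ UTR. Single markers of Kupffer cells (1 of 5, 15 counts), endothelial cells (1 of 5, 12 counts), stellate cells (1 of 5, Reln, 150 counts) and leukocytes (1 of 3, 14 counts) had clusters, none of them in a 5′ UTR, and none of 4 cholangiocyte markers did. A heptamer resembling the sequencing adaptor lay 6 to 17 nt downstream of the 5′ end in 10 of 968 5′ UTR clusters (1.03%), against 1.38% of coding and 1.14% of 3′ UTR clusters.

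The 5′ UTR clusters had counts near those of the whole list, whose median was 17. They summed to 22731 counts, or 0.797% of all counts, and 5 of them exceeded 100 counts. Their median count was 16 (quartiles 12 and 24, highest 145), against 18 for 10458 clusters in coding sequence (quartiles 13 and 26, highest 1938) and 20 for 9857 clusters in 3′ UTRs (quartiles 14 and 32, highest 8934). Of the 5′ UTR clusters, 97 were at the minimum of 10 counts. Also 97, or 9.09% (7.51 to 10.97%), were among the top 10% of the whole list, which began at 39 counts. This share was 11.1% (10.5 to 11.7%) in coding sequence and 18.7% (17.99 to 19.5%) in 3′ UTRs. It was 10.2% in the whole list, inside the interval of the 5′ UTR clusters, and 8.24% in introns, where the median count was 17. The 5′ UTR clusters were also broad, with a median width of 35 nt against 30 nt in coding sequence and 16 nt in 3′ UTRs. Widths of 5 nt or less were found in 13.3% (11.4 to 15.5%) of them, against 16.2% and 27.2%.

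Within the UTRs of their reference transcripts the clusters lay towards the start codon. For each cluster the distances were counted along 1 spliced reference transcript, of which there were 948 with a median 5′ UTR of 285 nt. The median distance from the transcript start to the cluster midpoint was 151 nt (quartiles 71 and 287.5, range 0 to 8738), and that from the midpoint to the start codon was 111 nt (quartiles 46 and 247.5, range 1 to 7092). Shares of bases given below are means over the clusters, each taken from the cluster's own UTR. Of the clusters, 15.3% (13.2 to 17.6%) lay within 50 nt of the transcript start, where a mean of 21.2% of the bases lay. Within 50 nt of the start codon lay 27.3% (24.7 to 30.02%), against the same mean of 21.2%. Pooled over these transcripts, where long UTRs weigh more, the bases had medians of 224 nt from the start and 225 nt to the codon. Against that pooled measure the clusters lay nearer to both ends. When every UTR was cut into 5 equal segments from its start, they held 15.2%, 17.4%, 19.5%, 21.9% and 26.0% of the clusters, each beside 20% of the bases. The share therefore rose at each step towards the start codon, and the intervals of the first segment (13.2 to 17.5%) and of the last (23.4 to 28.7%) did not meet. Midpoints of clusters were set beside single bases, and the part of cluster width in this rise was not tested. At the far end, 8.62% of clusters lay over 500 nt from the start codon, against a mean of 9.43% of the bases of their own UTRs. Over the pooled bases the third quartile of this distance was 464 nt, against 247.5 nt for the clusters.

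**Figure D1:**
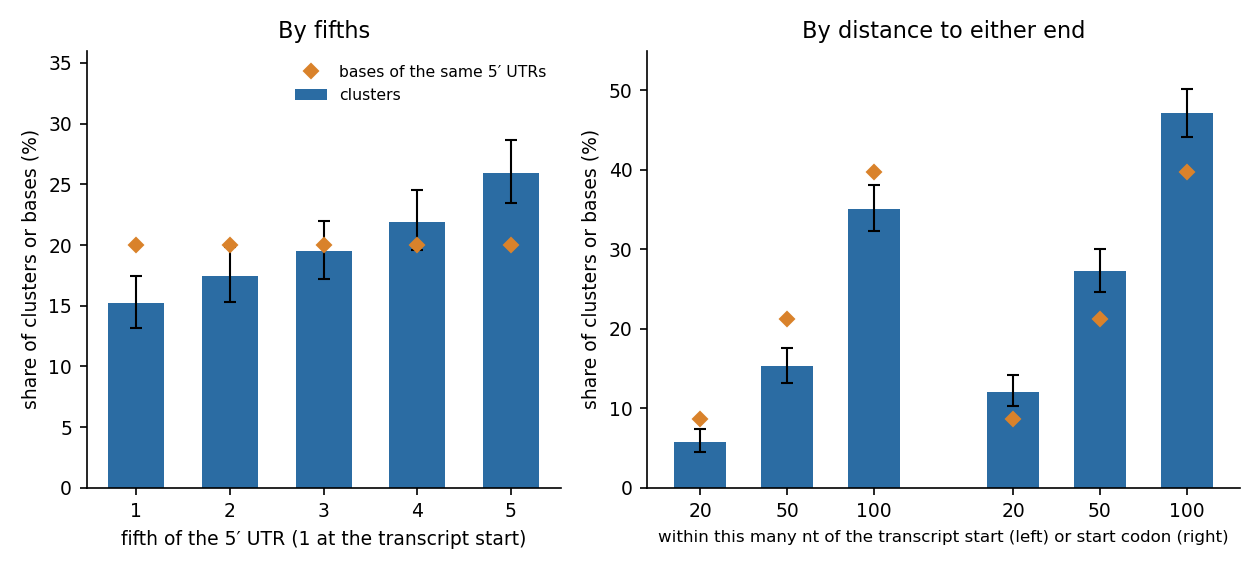
Share of the 1067 clusters by segment of the 5′ UTR (left) and within 20, 50 or 100 nt of the transcript start or the start codon (right), in percent. Bars are clusters with 95% Wilson intervals and diamonds are mean shares of bases in the clusters' own UTRs. Clusters fall below the diamonds near the transcript start (15.3% against 21.2% within 50 nt) and above them near the start codon (27.3% against 21.2%).

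Some clusters crossed the borders of the UTR. The interval of 127 clusters (11.9%, 10.1 to 13.98%) reached the start codon itself, with a median count of 20. In tallies that can overlap, 74 (6.94%) reached upstream of the annotated transcript start and 87 (8.15%) reached past the 5′ splice site of their exon. A 5′ splice site is the end of an exon at which RBFOX2 often binds in the adjoining intron. Within 50 nt of it lay 20.4% (18.1 to 23.0%) of the clusters, against a mean of 15.3% of the bases of their UTRs. An upstream ATG lay inside 219 of 1065 cluster intervals (20.6%, 18.2 to 23.1%), and stretches of the same lengths taken along the same UTRs held one in 19.9%, a value inside that interval.

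The first exon held 878 clusters, or 82.3% (79.9 to 84.5%), and it also held a mean of 82.2% of the bases of their UTRs. In UTRs split over at least 2 exons the figures were 385 of 574 clusters (67.1%) and 67.0% of bases, so first exons held clusters in proportion to their length. The other 189 clusters were in exon 2 (156), exon 3 (27), exon 4 (4) and exon 6 (2). First-exon and later-exon clusters had the same median count of 16, while later-exon clusters were narrower (28 against 37 nt) and nearer to the start codon (86 against 120.5 nt). Later exons lie downstream of the first by definition, and these distances were not set beside those of bases.

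The rule took any protein-coding transcript, and for many clusters this was not the principal one, the transcript that the annotation marks as the main form of the gene. The midpoint lay in the 5′ UTR of the principal transcript for 764 clusters (71.6%, 68.8 to 74.2%), in an intron of it for 241 (22.6%, 20.2 to 25.2%) and upstream of its start for 62 (5.81%, 4.56 to 7.38%). Of the 241, 206 lay in the first exon of their reference transcript, an alternative first exon within the gene body, and came from 165 genes. The median count of all 241 was 16, near the 16.5 of clusters in the principal 5′ UTR, and they were narrower (23 against 41 nt). For these clusters pre-mRNA and mRNA from an internal promoter cannot be told apart. In addition 326 midpoints (30.6%) lay in an exon of a retained-intron transcript and 306 (28.7%) in an exon of another non-coding transcript or of one annotated as a target of nonsense-mediated decay. A gene on the opposite strand covered 110 midpoints.

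**Figure D2:**
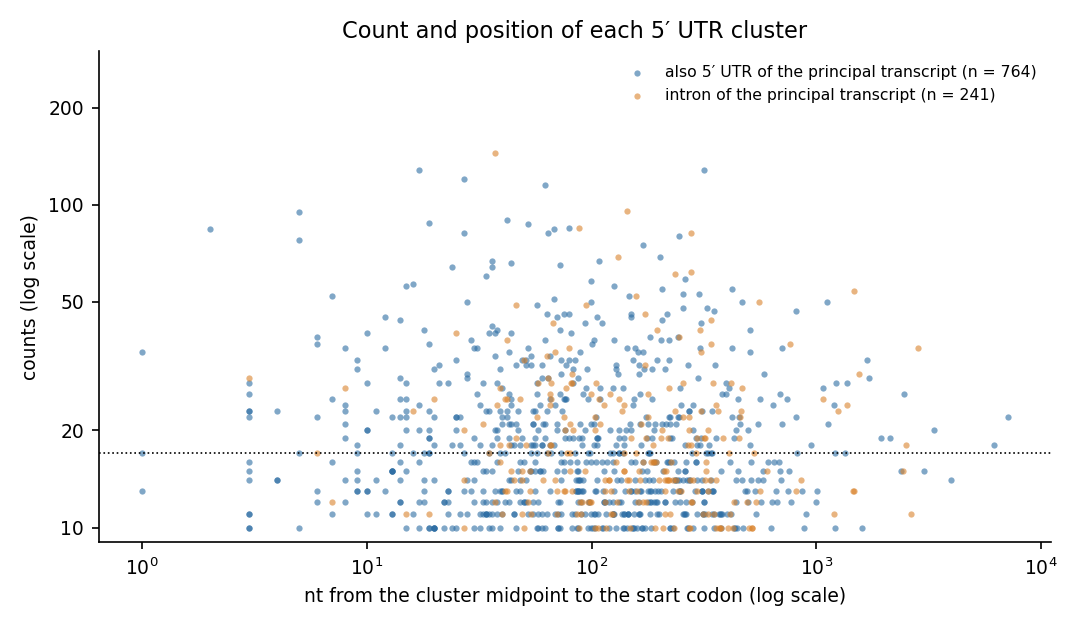
Count of a cluster (log scale) against its distance in nt to the start codon (log scale), coloured by where the midpoint lies in the principal transcript. Drawn are the 764 clusters in the principal 5′ UTR and the 241 intronic in the principal transcript. The 62 clusters upstream of the principal start are not drawn. The dotted line is the median count of the whole list, 17, which 523 of the 1067 5′ UTR clusters reach. High counts lie at short and long distances, and both kinds overlap throughout.

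The highest cluster, of 145 counts, lay in Cald1, which encodes the actin-binding protein caldesmon (chr6:34709531-34709684). It covered the start codon of Cald1-203, whose first exon is intronic in the principal Cald1-202, and it held 2.21% of the 6573 counts of the gene. Gdf15, a secreted hormone induced by cell stress, had 128 counts at chr8:70631900-70631954, 315 nt before the start codon. With 2 further clusters its 5′ UTRs held 77.0% of the 196 counts of the gene. Mt2, a metal-binding metallothionein, had 120 counts 27 nt before the start codon, and Ahsa1, an activator of the chaperone HSP90, had 115 in a cluster that spanned its whole UTR of 144 nt. The 5 clusters above 100 counts stood between percentiles 98.4 and 98.8 of the whole list.

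The next 10 clusters in rank had 83 to 96 counts. Trf, the iron carrier transferrin, had 95 counts centred 5 nt before the start codon. Gc, the vitamin D binding protein, had 87 counts in a narrow cluster of 18 nt. Scd1, which desaturates fatty acids, had 85 counts in a cluster of 195 nt that reached the start codon. In these genes most counts lay elsewhere, and the 5′ UTR held 7.79% in Trf, 2.59% in Gc (with a second cluster of 26 counts) and 1.497% in Scd1. Also among the 15 highest were Bax, a promoter of apoptosis (96 counts), the 14-3-3 protein Ywhah (90), the small GTPase Rab24 (88), the adaptor Sorbs2 (85) and the splicing factor Srsf5 (83). Of the 15, 9 reached the start codon and 12 had their midpoint within 100 nt of it. Over all 5′ UTR clusters these shares were 11.9% and 47.1%, and the part of cluster width in them was not tested. In all, 14 were in the first exon, against 82.3% of all 5′ UTR clusters. In the principal transcript 3 (Cald1, Bax and Sorbs2) were intronic and 1 (Srsf5) lay upstream of its start, against 22.6% and 5.81% of all.

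**Figure D3:**
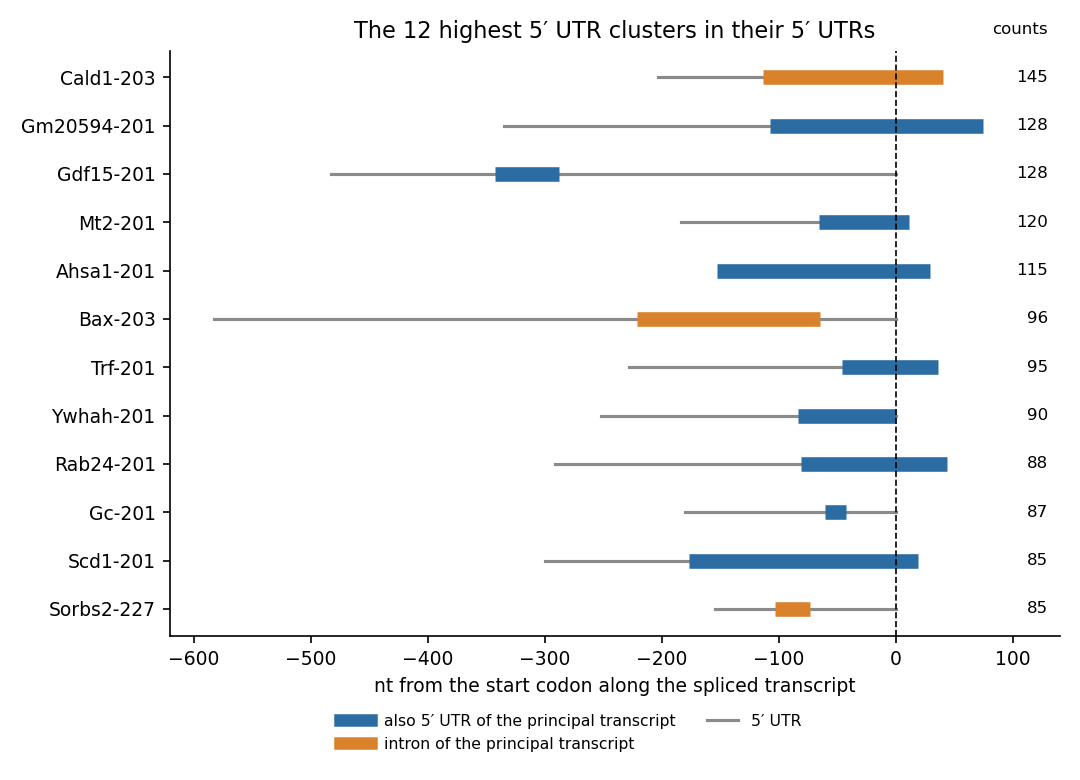
The 12 clusters with the highest counts, drawn along their 5′ UTRs (grey lines) in nt from the start codon (dashed line) of the spliced reference transcript named at the left, with counts at the right. Colour gives the place in the principal transcript. Of the 12 clusters, 7 reach the start codon, against 11.9% of all 5′ UTR clusters.

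Among the 15 highest, Gm20594 (128 counts, chr6:79818143-79818324) was unlike the rest. Over the 182 nt of its cluster, 171 bases (94.0%) equalled the mitochondrial ribosomal RNA gene mt-Rnr2 without a gap, a comparison made after its values were seen, and it was the only cluster of the gene. Reads of the 2 genes may therefore not be separable in full. In the whole set 12 of 1065 clusters (1.13%, 0.646 to 1.959%) began with 30 nt found unchanged in a transcript of another gene elsewhere. The highest outside Ccnb1ip1 were in Rplp1 (46 counts, copy in Gm10073), Hspb1 (40 counts, copy in Gm9817) and Rps12 (36 counts, copies in Rps12-ps3 and Nphs1). A small RNA gene on the same strand covered 10 midpoints, 5 of them in Ccnb1ip1, whose 5′ UTR holds Rpph1, the RNA of ribonuclease P (11 to 41 counts), and 1 in Grcc10 over the U7 gene Rnu7 (53 counts). In these genes the mRNA and the small RNA cannot be told apart.

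Most genes had a single 5′ UTR cluster (762 of 879, 86.7%), 81 had 2 and 36 had 3 or more. Tmbim1, a membrane protein, and Dlgap4, a scaffold protein, had 8 each. Those of Tmbim1 (14 to 27 counts) were strung along the 8962 nt UTR of Tmbim1-202, from 7092 to 224 nt before the start codon, and every one lay opposite a gene on the other strand. Those of Dlgap4 (10 to 21 counts) were all intronic in the principal transcript, and 7 of them lay in 1 exon within 63 to 489 nt of its start. Sorbs2, an adaptor between membrane and actin cytoskeleton, had 7 clusters (12 to 85 counts) in 5′ UTRs of 6 transcripts, 1 of them the principal one. They held 0.761% of the 29708 counts of the gene, and 6 of the 7 were intronic in the principal transcript. Krba1, a gene with a KRAB-like domain, had 6 clusters (11 to 54 counts) in exon 2 of Krba1-202, intronic in the principal transcript, and they held 64.5% of the counts of the gene. The gene 2410002F23Rik also had 6 (10 to 69 counts), of which the highest lay over a small RNA gene and the lowest over Snord88a.

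By summed 5′ UTR count the first gene was Kyat1, an aminotransferase of kynurenine and cysteine conjugates. Its 5 clusters summed to 235 counts, from 2 first exons that start apart (80 counts in Kyat1-204 and 76 in Kyat1-206), and were 10.7% of the counts of the gene. Sorbs2 followed with 226, Krba1 with 167 and 2410002F23Rik with 162. Atf5, a stress-induced transcription factor whose translation is set by upstream reading frames, had 5 clusters of 15 to 48 counts, 138 in all. Actb, cytoplasmic actin, had 4 of 13 to 64 counts, 136 in all, 2 of them in its own first exon and 2 intronic in the principal transcript.

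Genes with a 5′ UTR cluster carried more clusters elsewhere than other bound genes. Their median number of clusters outside 5′ UTRs was 8, against 3 for 8312 protein-coding genes with clusters but none in a 5′ UTR. A coding cluster was present in 598 of 879 (68.0%, 64.9 to 71.0%) against 41.1% (40.02 to 42.1%), and a 3′ UTR cluster in 58.5% (55.2 to 61.7%) against 37.2% (36.1 to 38.2%). An intronic cluster was present in 84.0% (81.4 to 86.2%) against 85.6% (84.8 to 86.3%), and the numbers of intronic clusters were not compared. In this assay a more abundant mRNA and a more tightly bound one cannot be told apart. Only 65 genes (7.39%) had no other cluster, and in 102 genes with other clusters the highest was in the 5′ UTR. The median share of the counts of a gene that lay in its 5′ UTR clusters was 10.1%. Most clusters stood alone, with no other cluster within 500 nt for 689 (64.6%, 61.7 to 67.4%).

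The RBFOX pentamer was infrequent near 5′ UTR clusters. In windows of the cluster and 50 nt on each side, taken on the genome where exons covered all of it, GCATG occurred in 57 of 599 (9.52%, 7.42 to 12.1%). It occurred in 495 of 3868 coding windows (12.8%, 11.8 to 13.9%) and in 2086 of 9627 3′ UTR windows (21.7%, 20.9 to 22.5%). The difference, 5′ UTR minus coding, was -3.28 percentage points (Newcombe 95% interval -5.65 to -0.476). It shrank to -1.12 points (-2.76 to 0.895) with 20 nt on each side and to -1.78 points (-3.69 to 0.493) in windows of 1 fixed length centred on the midpoint, with intervals that span 0. The difference to 3′ UTR windows was -12.2 points (-14.4 to -9.41). For the hexamer TGCATG the shares were 3.67% and 3.59% in 5′ UTR and coding windows, which differed by 0.0792 points with an interval that spans 0 (-1.31 to 1.98). In 3′ UTR windows it was 11.7%, a difference of -8.08 points (-9.48 to -6.14).

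Along the spliced transcript every cluster with sequence had a window, and the same UTRs gave a level to read it against. GCATG was in 116 of 1065 windows (10.9%, 9.16 to 12.9%). Averaged over the clusters, 9.45% of all windows of those lengths along the same UTRs held it, a difference of 1.44 percentage points. This level lies inside the interval. In coding sequence the difference was 1.02 points (14.1% against 13.0%) and in 3′ UTRs 7.66 points (21.7% against 14%). Of the 116 windows, 27 held it only at the start codon, as in Rab24, where the ATG of the motif is the codon, and 76 held a match wholly upstream of the start codon. Clusters in exon 2 or later had GCATG in 27 of 189 windows (14.3%, 10.01 to 19.99%) against 9.51% of windows in their UTRs, and those in the first exon in 10.2% (8.33 to 12.3%) against 9.44%. Clusters intronic in the principal transcript had it in 42 of 241 (17.4%, 13.2 to 22.7%) against 13.4%, and those upstream of the principal start in 0 of 62, with a Wilson interval up to 5.83% that holds the 3.63% of windows in their UTRs. Clusters among the top 10% of counts had it in 8 of 96 windows (8.33%, 4.28 to 15.6%) against 8.96%.

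**Figure D4:**
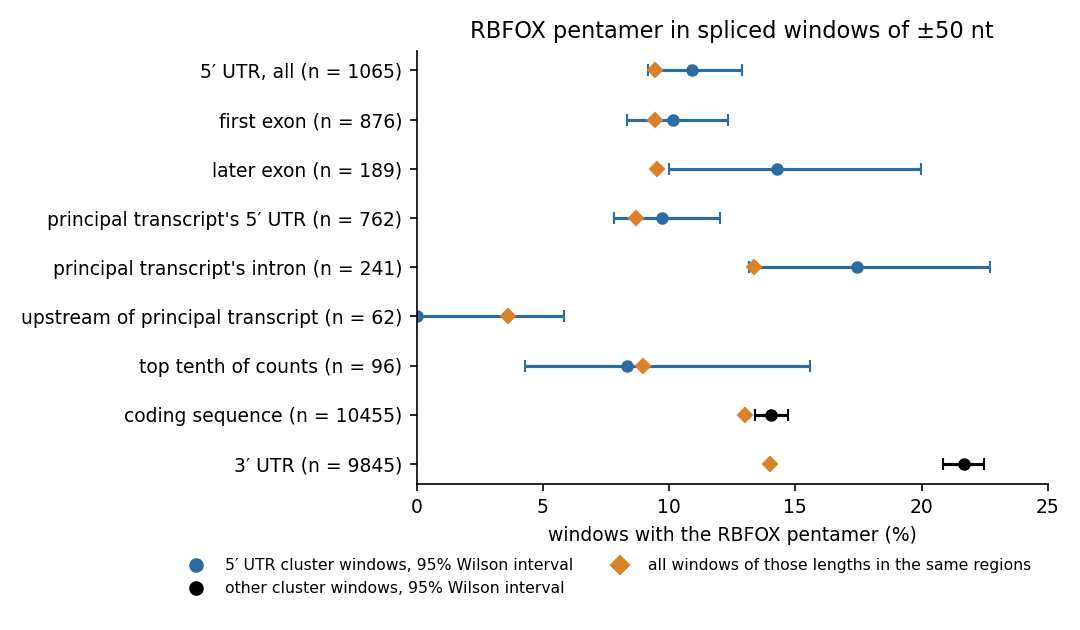
Percentage of spliced windows that hold the RBFOX pentamer, for all 5′ UTR clusters, for kinds of them, and for coding and 3′ UTR clusters. Circles are cluster windows with 95% Wilson intervals, and diamonds are all windows of the same lengths in the same regions, averaged over clusters. The 5′ UTR value (10.9%) is 1.44 points above its diamond, whereas the 3′ UTR value (21.7%) is 7.66 points above.

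The position and base composition of the motif were described as well. GCATG began 1 to 10 nt upstream of the 5′ end of a cluster at 11 of 9466 positions and 11 to 20 nt upstream at 13 of 9096. In the 10 nt from the 5′ end onwards it began at 1 of 9680, and at 60 nt or more on either side at 56 of 66275. Among all pentamers ranked by their share in cluster windows over that in windows of the same UTRs, GCATG was number 201, and the leading one, ACGAT, reached 1.55 times. The 5′ UTR windows had a median GC content of 61.0%, near the 61.4% of their own UTRs, against 52.3% in coding and 41.7% in 3′ UTR windows. GCACG, a weaker RBFOX motif, was in 11.7% (9.35 to 14.5%) of the genome windows against 5.71% of coding and 2.91% of 3′ UTR windows. Against its own UTRs it was 1.17 points higher (10.9% against 9.72%), a gap smaller than its interval (9.16 to 12.9%). The part of base composition in these shares was not tested.

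Gene lists chosen with earlier results of these data known were then counted, each by the genes that had any cluster and those that had one in a 5′ UTR. The list of ribosomal proteins, translation factors and other TOP mRNAs led, with 33 of 91 (36.3%, 27.1 to 46.5%), where 9.56% of all 9191 protein-coding genes with a cluster had a 5′ UTR cluster. Such mRNAs start with a terminal oligopyrimidine (TOP) tract through which growth signals control their translation. The highest were the elongation factor Eef1a1 (78 counts, exon 2, 5 nt before the start codon) and the ribosomal protein genes Rpl31 (69 counts, intronic in the principal transcript), Rps9 (53 counts) and Rplp1 (46 counts). The 38 clusters of this list had a median of 20 counts. Of them 3 had GCATG in the spliced window, against 10.9% of all 5′ UTR clusters with sequence. Some others of the list were also intronic in the principal transcript, such as clusters in Rpl9, Rpl11, Rpl15, Rpl21, Rpl28 and Rps15. Splicing regulators followed with 23 of 69 (33.3%, 23.4 to 45.1%), and Hnrnpa1 was counted in both lists. Among these were Srsf5 (83 counts), Hnrnpa2b1 (82 counts, 27 nt before the start codon), Rbfox2 itself (52 counts) and Mbnl1, with 3 clusters in exon 2 of 26 to 50 counts.

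Genes under upstream reading frame control had a 5′ UTR cluster in 5 of 18 (27.8%, 12.5 to 50.9%), led by Atf5 (48 counts at most), Azin1 (22 counts), the phosphatase subunit Ppp1r15a (16 counts) and Mdm2 (14 counts). Genes of clathrin coats, junctions and actin had one in 9 of 35 (25.7%, 14.2 to 42.1%), led by Sorbs2 (85 counts), the catenin Ctnnd1 (36 counts), the clathrin adaptor Picalm (23 counts) and Epb41l2 (18 counts). Lipoprotein and cholesterol genes had one in 7 of 39 (17.9%, 8.98 to 32.7%), an interval that holds the 9.56% of all genes. These were mainly apolipoproteins, with Apoa4 (60 counts), Apoe (50 counts), Apoa1 (22 counts) and Apob (18 counts). Each of those named had its midpoint within 100 nt of the start codon, as did 47.1% of all 5′ UTR clusters. None of the 7 had GCATG in the spliced window, against 10.9% of all 5′ UTR clusters with sequence. Plasma proteins had one in 6 of 35 (17.1%, 8.10 to 32.7%), and after Trf and Gc the highest were Ambp, a protease inhibitor precursor (40 counts), and fibronectin Fn1 (33 counts). Hepatic transcription factors had one in 5 of 30 (16.7%, 7.34 to 33.6%), of 11 to 23 counts and highest in Nr1i2 and Gata4, and insulin and nutrient signalling genes in 4 of 37 (10.8%, 4.29 to 24.7%). The intervals of these last 3 lists also hold 9.56%. Of 5 iron-responsive genes with clusters only Fth1, ferritin heavy chain, had 5′ UTR clusters (20%, 3.62 to 62.4%), of 64 and 46 counts in exon 2 of Fth1-203.

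**Figure D5:**
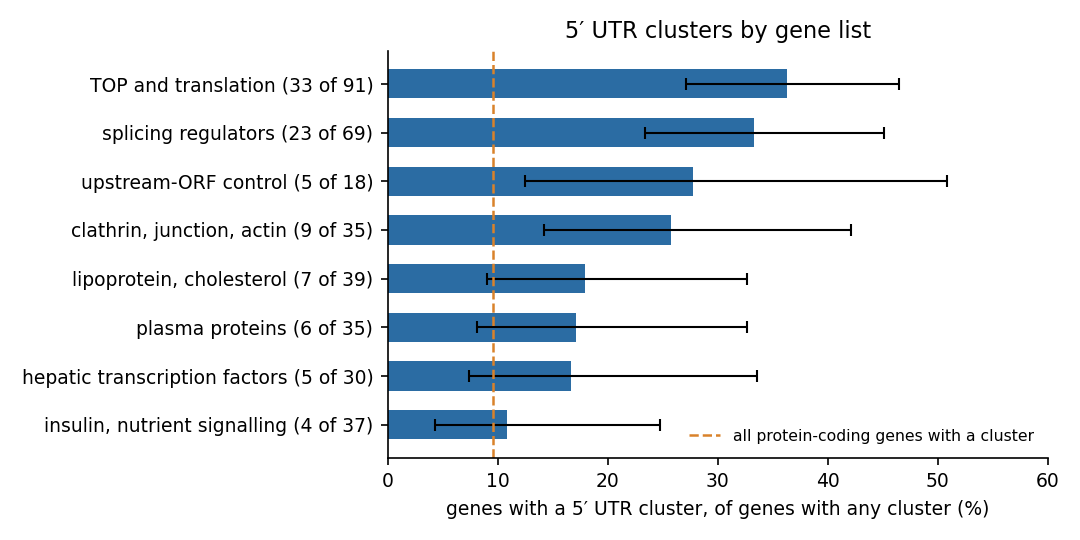
Percentage of the genes with any cluster that had a 5′ UTR cluster, by gene list, with 95% Wilson intervals over genes. The dashed line is the 9.56% of all protein-coding genes with a cluster. TOP and translation genes (36.3%) and splicing regulators (33.3%) lie farthest above it, and insulin and nutrient signalling (10.8%) lies near it.

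The lists also differ in how many other clusters their genes have. Among the protein-coding genes with a coding cluster, 14.9% had a 5′ UTR cluster, and on this narrower ground the shares were 42.5% for the TOP and translation list (31 of 73), 39.6% for splicing regulators (21 of 53), 25% for lipoprotein and cholesterol genes (7 of 28), 17.1% for plasma proteins (6 of 35), 36.4% for genes under upstream reading frame control (4 of 11), 33.3% for hepatic transcription factors (3 of 9), 31.0% for clathrin, junction and actin genes (9 of 29), 25% for iron-responsive genes (1 of 4) and 10.5% for insulin and nutrient signalling (2 of 19). The shares for plasma proteins and for insulin and nutrient signalling are near that background, and those of the smallest lists rest on 1 to 4 genes. No intervals were computed for these shares, and the 25% of the lipoprotein list rests on 7 genes. Transcript abundance was not measured in these files, and its part in the shares was not tested.

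Of the 8 genes that the study names as targets or factor, 2 had a 5′ UTR cluster (25%, 7.15 to 59.1%). That interval holds the 9.56% of all protein-coding genes with a cluster. Snrnp70, the U1 snRNP protein, had 38 counts over 169 nt (chr7:45395540-45395708) in the first exon of its principal transcript, 126 nt before the start codon, and these were 1.59% of the 2389 counts of the gene. Rbfox2 had 52 counts over 155 nt (chr15:77153636-77153790) in the first exon of Rbfox2-203, which is intronic in the principal transcript, and these were 3.23% of its 1609 counts. Its window had no GCATG. In Scarb1, Pla2g6, Sec31a, Osbpl9 and Ptbp2 the cluster nearest to the start of the principal transcript lay 6990 nt (Sec31a) to 30298 nt (Ptbp2) away. Numb had a cluster 5 nt from its principal start that counted as coding because its midpoint lay in coding sequence of an annotated transcript.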

How the data were processed

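Cluster positions, strand and counts were taken from 1 deposited list. Per the labels and the study's methods, the authors trimmed reads with cutadapt, dropped those shorter than 18 nt, aligned the rest end to end with STAR 2.4.2a to GRCm38 and kept unique hits. They removed duplicates by random barcode, pooled the 3 libraries and called clusters with Paraclu. The deposited value is read here as a raw count of cDNA starts, from its whole numbers, and was not normalised or corrected for input. The sources used here give no depth per library, and the input was not analysed here. Labels state 3 livers and 3 pellets, while the methods state 3 independent cultures, each from a pair of mice.

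Clusters were annotated by midpoint with GENCODE M21 (the study named an earlier release). Of 87021 clusters, 28 lay outside the annotation. The reference transcript was the best ranked protein-coding transcript (principal, basic, CCDS, longest) whose 5′ UTR held the midpoint. Sequences came from its transcripts, and 2 clusters had none. Windows added 50 nt on each side. Shares have Wilson and differences Newcombe 95% intervals. No p-value was computed, since no replicates remain. Named were the 15 highest clusters, the 10 genes with the highest sums, the 5 with the most clusters, the 10 highest clusters with TGCATG, the 4 highest genes of each list and 8 study genes, and a few that met this rule are not reported here. Genes with copies or small RNA overlaps were named after their values were seen. Members and lists were chosen with earlier results of these data known. Annotation and distances were tested on simulated data (12400 of 12400 positions right). Python 3.11.15, pandas 2.3.3, numpy 2.4.6 and matplotlib 3.10.9 were used.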

Additional observations from a re-analysis of the deposited data

How the results depend on the processing

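The alternatives gave 68 values, of which 48 stayed within the interval of the reported value (for the number of clusters, within 1.5 times), 18 left it and 2 changed sign. With counts at or above the list median of 17, 523 clusters remained, with a median of 24 counts and 94 nt to the start codon. In the top 10% of counts there were 97, with a median of 50 counts, 86.6% in the first exon, 165 nt from the transcript start and a GCATG difference to coding windows of -8.13 points (-14.1 to 2.80). At or above the list median it was -3.31 points (-6.74 to 1.07). Without midpoints that another transcript also covers, 231 remained. Placing clusters by their 5′ end gave 135 nt from the transcript start and 108 nt to the start codon. Asking for every base in the UTR gave 157 nt and 144 nt. Over any transcript, 87.3% were in a first exon and the smallest distance from a start had a median of 102 nt. Along the genome the distance to the start codon was 331 nt. With 20 nt on each side 6.38% of windows held GCATG, and TGCATG was in 3.67%. The difference to coding windows turned to 0.0792 points for TGCATG and 5.97 points for GCACG. In 2 alternatives chosen after seeing the data, clusters in the principal 5′ UTR lay 162.5 nt from the start and 91.5 nt from the codon, and leaving out adaptor-like heptamers moved no value out of its interval. The cause of these shifts was not tested. No library could be left out, because the counts are pooled. No paired analysis was possible because the list holds 1 pooled value per cluster.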
